A study of Homo sapiens with 6 samples.

Results

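The genes described here encode histone deacetylases, sirtuins, lysine demethylases and lysine methyltransferases. They were chosen by name, as protein-coding genes outside the Y chromosome whose symbol is HDAC, SIRT, KDM, KMT2, KMT5 or SETD followed by a member number or letter. The rule used no measured value and found 54 of the 58735 genes in the count table, made up of 11 HDAC genes, 7 sirtuins, 19 KDM genes and 17 KMT2, KMT5 and SETD genes. Their mRNA was measured by polyA RNA-seq in OE33 cells, an established human line of esophageal adenocarcinoma. Control cells (Ctrl, 3 libraries) were untreated. The other group (ABS, 3 libraries) spent 20 min in unsupplemented medium at pH 4.0 with 200 µM acidified bile salts, and then 6 h in complete medium before harvest. Replicates were described as independent biological replicates of this single line. No group was labelled as given acid or bile salts alone, and the labels do not say whether control cells had a change into unsupplemented medium. Acid, bile salts and, unless control cells had them too, that medium and its handling cannot be told apart in the values of ABS over control. The comparison asks which of these genes differed in mRNA level after an acute exposure that models reflux.

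Histone deacetylases remove acetyl groups from lysines of histone tails and of other proteins, the classical classes with zinc and the sirtuins with NAD+. Lysine methyltransferases of the SET domain family add methyl groups, and the demethylases remove them, either with flavin (the KDM1 enzymes) or with iron, oxygen and 2-oxoglutarate (the JmjC enzymes). Which lysine is methylated matters: H3K4 methylation marks promoters and enhancers, H3K36 methylation the bodies of transcribed genes, and H3K9, H3K27 and H4K20 methylation mostly repressed chromatin. Several of these genes, *KMT2D* and *KDM6A* among them, are recurrently mutated in human cancers. The counts below are of mRNA and say nothing of enzyme activity or of the marks themselves.

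Promoter windows are shown for *HDAC9*, *HDAC11* and *KMT2A*, the 3 genes that passed a test in a fit where an extra term covered replicate 3 of both groups (below). Each runs from 250 bases before to 50 bases after a RefSeq start site on GRCh38.p14, is written 5′ to 3′ on the plus strand, and has every CG dinucleotide in capitals.
HDAC9, chr7:18086575-18086874: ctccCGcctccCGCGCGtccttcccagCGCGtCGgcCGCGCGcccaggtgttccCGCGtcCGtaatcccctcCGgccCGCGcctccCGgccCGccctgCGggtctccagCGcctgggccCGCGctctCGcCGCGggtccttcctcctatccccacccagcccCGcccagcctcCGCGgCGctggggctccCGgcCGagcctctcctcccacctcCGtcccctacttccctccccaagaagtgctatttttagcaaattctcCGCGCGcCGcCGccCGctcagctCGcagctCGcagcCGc
HDAC11, chr3:13480056-13480355: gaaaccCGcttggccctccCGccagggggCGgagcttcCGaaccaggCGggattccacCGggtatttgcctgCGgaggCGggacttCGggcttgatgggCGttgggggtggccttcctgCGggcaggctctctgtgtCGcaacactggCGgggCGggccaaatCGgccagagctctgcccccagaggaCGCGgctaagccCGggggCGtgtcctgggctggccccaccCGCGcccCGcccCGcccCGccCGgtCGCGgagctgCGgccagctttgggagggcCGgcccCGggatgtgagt
KMT2A, chr11:118436242-118436541: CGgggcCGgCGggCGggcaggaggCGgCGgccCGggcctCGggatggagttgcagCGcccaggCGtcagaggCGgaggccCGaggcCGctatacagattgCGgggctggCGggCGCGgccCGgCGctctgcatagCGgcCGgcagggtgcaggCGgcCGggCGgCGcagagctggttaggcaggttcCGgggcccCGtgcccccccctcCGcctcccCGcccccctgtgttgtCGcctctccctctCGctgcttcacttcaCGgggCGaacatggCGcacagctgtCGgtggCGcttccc
The windows held 41, 30 and 36 CG dinucleotides and were 75.0%, 73.7% and 76.3% GC. *HDAC9* has 5 start sites in RefSeq, and the one shown is nearest to the gene start in the count table. For *HDAC11* the RefSeq start site lies 582 bases downstream of that gene start, so its window is wholly inside the gene as counted. CG-rich starts were common to the whole group: over the 75 start sites of the 50 matched genes the median was 29 CG dinucleotides and 66.3% GC, against 14 and 58.7% over all 35116 start sites. Entries for *HDAC5*, *SIRT7*, *KDM4E* and *SETD1B* were not matched.

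Motifs linked to xenobiotic, oxidative, metal and AP-1 responses were searched as letters on both strands of these windows. TNGCGTG, the xenobiotic response element, was in 2.67% of the 75 start sites (of *HDAC4* and *KDM8*) and in 5.51% of all start sites. TGANTCA, the AP-1 site, was in 6.67% against 7.71%, and TGACNNNGC, the antioxidant response element, in 9.33% against 13.3%. For the metal response element, TGCACNC was in 10.7% against 12.1% and TGCGCNC in 30.7% against 20.0%. The only match in the 3 printed windows was TGCACNC in *KMT2A*. It lies on the strand opposite to the one printed, and its stretch begins at base 145 of the window. A match is a description of letters, and these windows share their CG-rich composition.

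The libraries held between 22145676 and 25235686 counts, and the 54 genes took 0.250% to 0.279% of them. The epithelial markers *EPCAM*, *CDH1*, *KRT8*, *KRT18* and *KRT19* were abundant in every library, and *PTPRC*, *CD3E*, *MS4A1*, *DCN* and *COL1A2* had 0 counts in all 6. Of the 14 fibroblast, immune and endothelial markers read, *CD14* lay at 9.17 to 11.4 TPM (counts per gene length, scaled to the same sum in each library), *COL1A1* at 1.01 to 1.35 TPM and the others at no more than 0.479 TPM. Replicate 3 of each group differed from its other 2 libraries more than those did from each other: the median absolute log2 difference over all tested genes was 0.12 between replicates 1 and 2 of either group, 0.18 to 0.20 between replicate 3 and either of them, and 0.13 between the replicate 3 libraries of the 2 groups. Results are therefore given with and without replicate 3. Its mitochondrially encoded share was 1.91% (control) and 2.09% (ABS), with 2.48% and 2.57% in the other control libraries and 2.07% and 2.26% in the other ABS libraries. In bulk RNA, fewer cells expressing a gene and less RNA per cell cannot be told apart.

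Levels between genes were compared per length with the deposited gene lengths, as TPM. These lengths appear to cover all annotated exons of a gene, so genes with many isoforms read lower than their main transcript would. *HDAC1*, the class I deacetylase of the SIN3, NuRD and CoREST complexes, was highest at 159.5 ± 5.37 TPM in control cells (SD, n = 3) and 152.7 ± 6.31 TPM after ABS. *KDM1A*, which encodes the H3K4 demethylase LSD1, followed at 87.8 ± 4.59 and 87.0 ± 4.18 TPM, and its spread did not overlap that of *HDAC1* or of *SETD3*, the next in order at 62.5 ± 4.03 and 58.5 ± 0.612 TPM. *SETD3* (an actin histidine methyltransferase) and *KDM2A* (59.1 ± 4.34 and 63.8 ± 3.70 TPM) were within each other's spread in control cells, while after ABS *KDM2A* was above *SETD3* in every library. *HDAC2* (50.7 ± 0.373 TPM) and *HDAC3* (49.6 ± 2.44 TPM) were within each other's spread in control cells. At the low end, *HDAC10* lay at 1.27 ± 0.291 and *HDAC8* at 1.31 ± 0.0768 TPM in control cells. The level of *HDAC10* is uncertain, because 55.8% of its annotated exon bases are shared on the same strand with *MAPK12*. Ranks moved by at most 6 places between the groups (*KDM1B*, from 23 to 17). *HDAC9* went from rank 33 (8.92 ± 1.40 TPM) to rank 29 (13.3 ± 2.04 TPM), and *HDAC11* from rank 40 (6.58 ± 0.309 TPM) to rank 42 (4.42 ± 0.327 TPM).

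**Figure D1:**
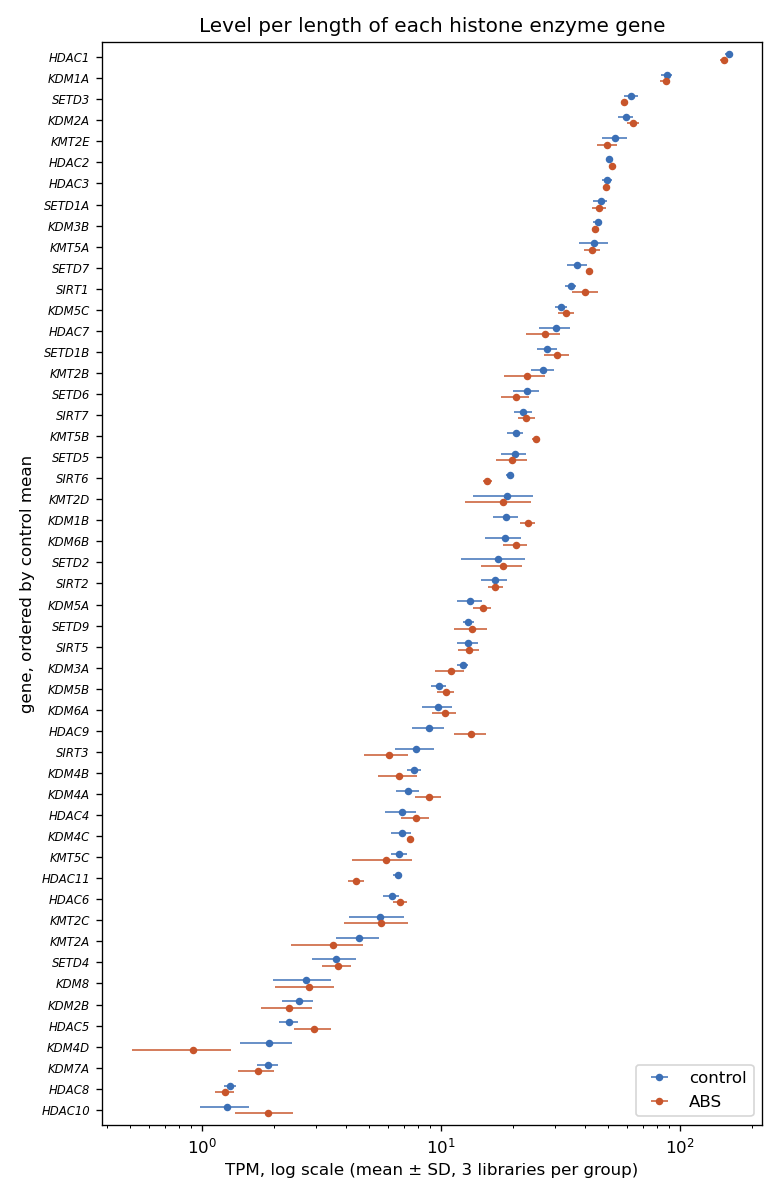
TPM on a log scale for each histone enzyme gene detected in control cells, ordered by the control mean; points are means and lines ± SD of 3 control (blue) or 3 ABS (orange) libraries. HDAC1 is highest at 159.5 TPM in control cells and HDAC10 lowest at 1.27 TPM, and for most genes the blue and orange points lie close together. The level of HDAC10 is uncertain, because it shares exon bases with MAPK12.

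Of the 54 genes, 51 had enough counts to be tested. *SIRT4*, a mitochondrial sirtuin, had 0 counts in the 3 control libraries and 0, 4 and 1 in ABS libraries 1, 2 and 3. *KDM4E* and *KDM4F*, relatives of the H3K9 demethylase *KDM4D*, had 0 counts in all 6. A count of 0 allows up to 3 counts, which is 0.119 to 0.135 CPM, the count scaled to library size, in these libraries.

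None of the 51 genes passed the edgeR quasi-likelihood test at a Benjamini-Hochberg adjusted p of 0.05 over all tested genes, where 60 of 13768 genes, or 0.436%, did. The lowest adjusted p was 0.0867, for *HDAC9*, and 118 genes of the table had a lower p. With limma-voom the count was also 0, and with DESeq2 it was 1 (*HDAC9*, adjusted p = 0.00291), where 267 of the 12166 genes given an adjusted p, or 2.19%, passed. At an unadjusted p under 0.05 there were 7 of 51, or 13.7%, against 9.75% of all tested genes. *HDAC9*, *KMT5B* and *KDM1B* had higher values after ABS among these 7, and *HDAC11*, *SIRT6*, *KDM4D* and *SIRT3* lower values.

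The median log2 fold change (ABS over control) of the 51 genes was −0.0025, beside −0.0037 over all tested genes, with 24 values above 0 and 27 below. The 3 ABS values lay wholly above the 3 control values in 4 genes (*HDAC9*, *KMT5B*, *KDM1B* and *KDM4C*), or 7.84%, against 7.57% of all tested genes. They lay wholly below in 5 (*HDAC11*, *SIRT6*, *KDM4D*, *SETD3* and *KDM3B*), or 9.80%, against 6.95%. In the other 42 the groups overlapped. These shares are near the background and are no result about the group as a whole. The 95% interval of the log2 fold change lay within 0.5 of 0, a 1.41-fold change, for 37 genes and within 1 of 0 for 49, so for most of them a change of 2-fold at this time point lies outside the interval.

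**Figure D2:**
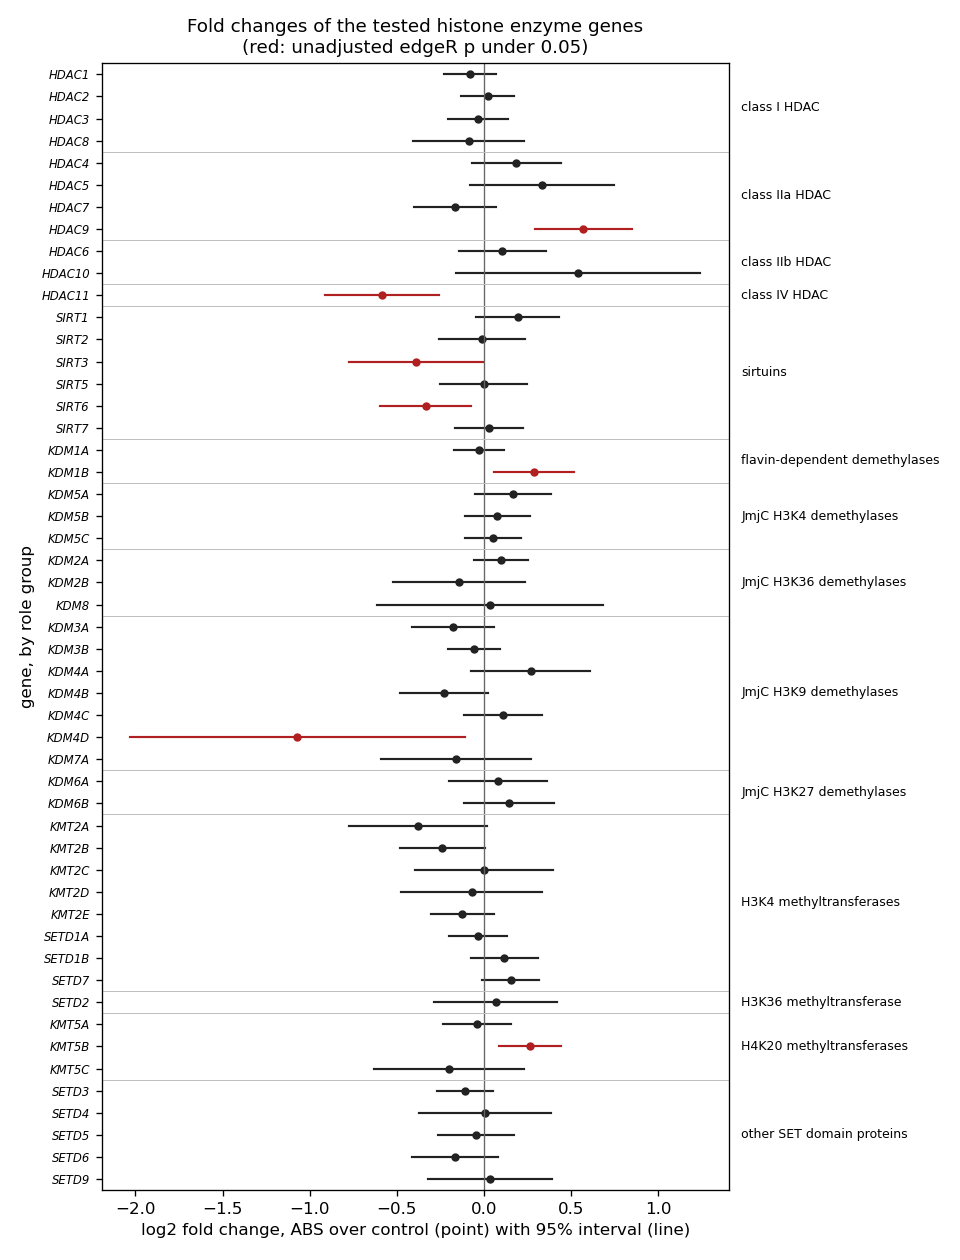
Log2 fold change, ABS over control, of the 51 tested genes (points) with 95% intervals (lines), grouped by role; red marks an unadjusted edgeR p under 0.05. The 7 red genes run from KDM4D at −1.07 to HDAC9 at 0.57, and most other intervals cross 0 within a change of 0.5.

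Among class I deacetylases, values were close in both groups. *HDAC1* lay at 179.9, 171 and 164 CPM in control libraries 1, 2 and 3 and at 160.3, 161 and 166 CPM in the ABS libraries, with a log2 fold change of −0.08 ± 0.07 (SE, adjusted p = 0.773, edgeR). The ABS values fall around the lowest control value and overlap with it. *HDAC2*, *HDAC3* and *HDAC8* had log2 fold changes of 0.02, −0.04 and −0.09. *HDAC8*, whose best known substrate is the cohesin subunit SMC3, had the widest interval of the 4.

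Class IIa deacetylases shuttle between nucleus and cytoplasm and act largely as scaffolds that bind MEF2 factors. *HDAC9* (ENSG00000048052, chr7:18086949-19002416 on GRCh38) lay at 36.7, 39.3 and 45.8 CPM in control libraries 1, 2 and 3 and at 63.4, 69.0 and 48.6 CPM in the ABS libraries. ABS libraries 1 and 2 are far above all controls, while ABS library 3 is just above control library 3. The log2 fold change was 0.57 ± 0.13 (SE, 95% interval 0.29 to 0.85, adjusted p = 0.0867, edgeR), from 40.6 ± 4.69 to 60.3 ± 10.6 CPM (SD, n = 3). Within replicates 1 and 2 it was 0.80 (adjusted p = 4.16e-08, edgeR), and the replicate 3 libraries differed by 0.09. *HDAC7*, the most abundant class IIa gene, lay at 73.2, 79.5 and 90.8 CPM in control cells and 66.6, 66.5 and 83.7 CPM after ABS, a log2 fold change of −0.17 ± 0.11 (adjusted p = 0.676, edgeR). Its replicate 3 value is the highest in both groups, and the groups overlap. *HDAC4* and *HDAC5* had values of 0.19 and 0.33 (adjusted p = 0.673 and 0.623, edgeR).

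The class IIb genes were *HDAC6*, the tubulin deacetylase of the cytoplasm, and *HDAC10*, a polyamine deacetylase. *HDAC6* lay at 19.4, 16.9 and 17.3 CPM in control cells and 19.7, 20.7 and 17.4 CPM after ABS, a log2 fold change of 0.11 ± 0.12 (adjusted p = 0.844, edgeR). *HDAC10* lay at 1.57, 2.23 and 1.36 CPM and at 1.86, 2.54 and 3.10 CPM, a log2 fold change of 0.54 ± 0.32 (adjusted p = 0.643, edgeR). Both genes overlap between groups. *HDAC10* is uncertain for another reason: 55.8% of its annotated exon bases are shared on the same strand with *MAPK12*, which had a median of 949 counts against 47.

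*HDAC11* (ENSG00000163517, chr3:13479724-13506424), the only class IV enzyme and an efficient fatty-acid deacylase, lay at 9.44, 9.38 and 9.47 CPM in control libraries and at 6.78, 6.43 and 5.61 CPM after ABS. The control values are nearly equal, and all 3 ABS values are below them, replicate 3 included. Its log2 fold change was −0.59 ± 0.15 (95% interval −0.92 to −0.26, adjusted p = 0.123, edgeR), and the replicate 3 libraries differed by −0.75. Within replicates 1 and 2 the value was −0.51 (adjusted p = 0.0591, edgeR). An antisense gene overlaps 6.25% of its exon bases and had a median of 0 counts.

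Sirtuins act in the nucleus (*SIRT1*, *SIRT6*, *SIRT7*), the cytoplasm (*SIRT2*) and mitochondria (*SIRT3*, *SIRT4*, *SIRT5*). *SIRT1*, the highest of them per length, lay at 44.8, 41.7 and 42.6 CPM in control cells and at 53.2, 53.6 and 40.8 CPM after ABS. ABS libraries 1 and 2 are above all controls and ABS library 3 is below them. The log2 fold change was 0.19 ± 0.11 (adjusted p = 0.623, edgeR), and 0.30 within replicates 1 and 2 (adjusted p = 0.0173, edgeR). *SIRT6*, an H3K9 and H3K56 deacetylase with roles in DNA repair and glycolysis, lay at 15.5, 14.7 and 14.1 CPM and at 11.4, 12.4 and 11.3 CPM, and its groups do not overlap. Its log2 fold change was −0.33 ± 0.12 (adjusted p = 0.325, edgeR), with −0.34 within replicates 1 and 2 and −0.32 for replicate 3. *SIRT3*, the main mitochondrial deacetylase, lay at 10.8, 9.65 and 12.7 CPM and at 10.6, 7.43 and 7.30 CPM, a log2 fold change of −0.39 (adjusted p = 0.503, edgeR), and the groups overlap through ABS library 1. Its exons overlap those of *PSMD13* on the opposite strand over 6.07% of their bases, and *PSMD13* had a median of 4229 counts against 233. *SIRT2*, *SIRT5* and *SIRT7* had log2 fold changes of −0.01, −0.00 and 0.03.

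**Figure D3:**
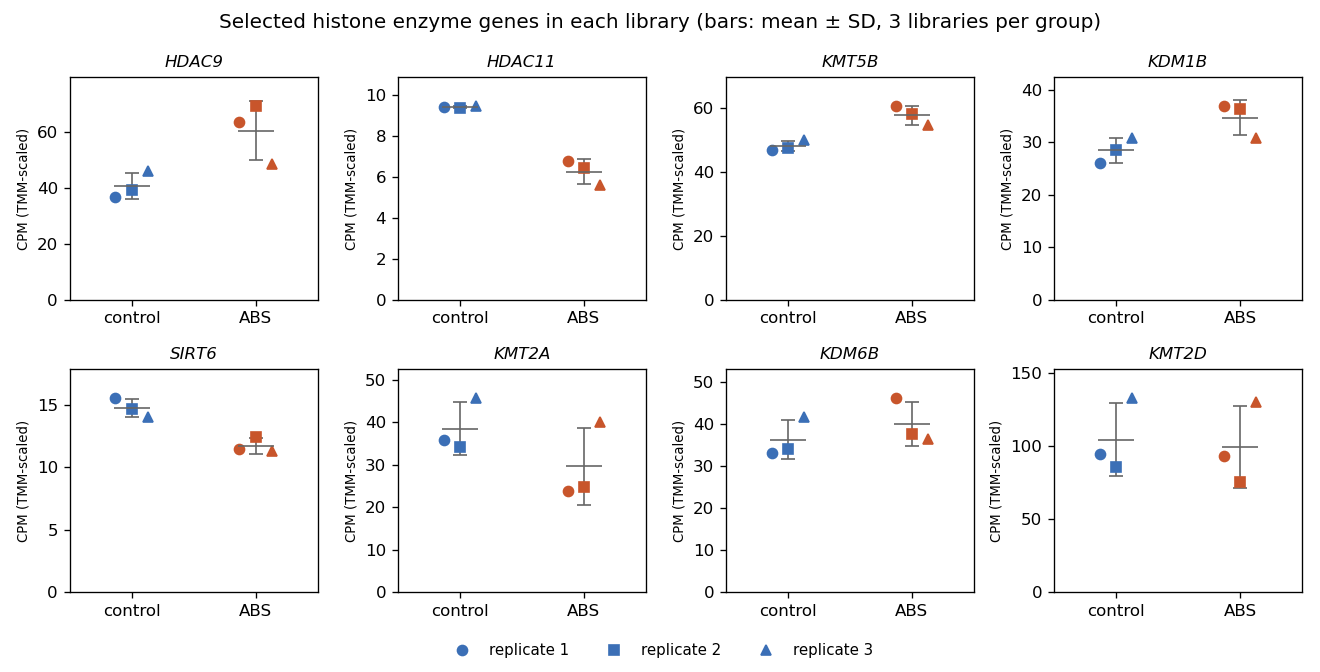
TMM-scaled CPM of 8 histone enzyme genes in each library, with control in blue, ABS in orange, a marker shape per replicate and bars for mean ± SD of 3 libraries. HDAC9 and KDM1B stand apart from control in ABS libraries 1 and 2 but hardly in replicate 3, HDAC11 and SIRT6 are lower in all 3 ABS libraries, and KMT2A and KMT2D are highest in replicate 3 of both groups.

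The flavin-dependent demethylases act on H3K4. *KDM1A* lay at 132, 127 and 130.2 CPM in control cells and 124, 126 and 130.3 CPM after ABS, a log2 fold change of −0.03 ± 0.07 (adjusted p = 0.943, edgeR) and a coefficient of variation of 1.87% in control cells and 2.36% after ABS. *KDM1B* (LSD2, which acts in gene bodies) lay at 26.1, 28.6 and 30.8 CPM and at 36.9, 36.4 and 30.9 CPM. ABS libraries 1 and 2 are clearly above the controls, and the replicate 3 values are nearly equal. The log2 fold change was 0.29 ± 0.11 (adjusted p = 0.355, edgeR), with 0.42 within replicates 1 and 2 (adjusted p = 0.00355, edgeR) and 0.00 for replicate 3.

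JmjC demethylases need oxygen and 2-oxoglutarate. Among those for H3K4, *KDM5A* lay at 43.8, 39.7 and 46.4 CPM in control cells and 48.0, 54.0 and 43.8 CPM after ABS, a log2 fold change of 0.17 ± 0.10 (adjusted p = 0.646, edgeR) and 0.29 within replicates 1 and 2 (adjusted p = 0.0335, edgeR). The replicate 3 libraries run the other way. *KDM5C* lay at 74.7, 74.8 and 76.8 CPM and at 74.6, 77.0 and 83.1 CPM, a log2 fold change of 0.05 ± 0.07 (adjusted p = 0.886, edgeR), and *KDM5B* had a value of 0.08. Of the H3K36 group, *KDM2A*, which binds unmethylated CpG islands, lay at 164, 163 and 172 CPM and at 189, 169 and 175 CPM, with overlap and a log2 fold change of 0.10 ± 0.07 (adjusted p = 0.729, edgeR). *KDM2B* had −0.14. *KDM8* was placed in the H3K36 group by the list used here, and its demethylase activity was not examined. It lay at 2.0 to 3.63 CPM and had 0.03, with 0.42 within replicates 1 and 2 and −0.80 for replicate 3.

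For H3K9, *KDM3B* lay at 96.2, 99.4 and 98.1 CPM in control cells and at 93.7, 93.6 and 94.8 CPM after ABS. The ABS values are all lower, but the log2 fold change was only −0.06 ± 0.07 (adjusted p = 0.854, edgeR). *KDM4B* lay at 32.1, 29.4 and 31.1 CPM and at 24.8, 23.1 and 31.0 CPM, with ABS libraries 1 and 2 below the controls and replicate 3 level, a log2 fold change of −0.23 ± 0.12 (adjusted p = 0.569, edgeR) and −0.36 within replicates 1 and 2 (adjusted p = 0.0178, edgeR). *KDM4D* rested on few reads, 47, 28 and 33 counts in control libraries and 27, 10 and 17 after ABS, or 2.0, 1.27 and 1.36 against 1.09, 0.437 and 0.667 CPM. Its log2 fold change of −1.07 ± 0.44 was the lowest of the group, with an interval from −2.03 to −0.11 (adjusted p = 0.443, edgeR). *KDM3A*, *KDM4A*, *KDM4C* and *KDM7A* had −0.18, 0.27, 0.11 and −0.16. Another gene on the same strand shares 40.2% of the *KDM4A* exon bases and had a median of 0 counts. The H3K27 demethylases were *KDM6B* (JMJD3), known as inducible by inflammatory signals, and *KDM6A* (UTX), a subunit of the KMT2C and KMT2D complexes. *KDM6B* lay at 33.1, 34.0 and 41.6 CPM and at 46.0, 37.7 and 36.4 CPM, with overlap, a log2 fold change of 0.14 ± 0.12 (adjusted p = 0.769, edgeR), 0.32 within replicates 1 and 2 (adjusted p = 0.0312, edgeR) and −0.19 for replicate 3. *KDM6A* had 0.08.

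The H3K4 methyltransferases KMT2A to KMT2D, SETD1A and SETD1B work in COMPASS complexes. SETD1A and SETD1B add the bulk of promoter H3K4me3, KMT2A and KMT2B act at selected promoters, and KMT2C and KMT2D at enhancers. *KMT2A* (ENSG00000118058, chr11:118436464-118526832) lay at 35.8, 34.2 and 45.6 CPM in control libraries and at 23.8, 24.8 and 40.1 CPM after ABS. Each ABS library is below its control of the same number, but replicate 3 is high in both groups, so the groups overlap. The log2 fold change was −0.38 ± 0.18 (95% interval −0.78 to 0.02, adjusted p = 0.544, edgeR), and within replicates 1 and 2 it was −0.53 (adjusted p = 0.000411, edgeR). Another gene on the same strand shares 17.9% of the *KMT2A* exon bases and had a median of 0 counts. Reads in that stretch cannot be assigned with certainty. *KMT2B* lay at 75.7, 68.3 and 78.6 CPM and at 60.0, 53.8 and 74.7 CPM, a log2 fold change of −0.24 ± 0.11 (adjusted p = 0.531, edgeR) and −0.34 within replicates 1 and 2 (adjusted p = 0.00392, edgeR). As in *KMT2A*, ABS libraries 1 and 2 are below all controls and ABS library 3 is not. *KMT2C* and *KMT2D* had −0.00 and −0.07, with intervals of −0.40 to 0.39 and −0.47 to 0.33. *KMT2E* is listed with them because it shares the KMT2 name, and its enzyme activity was not examined. It lay at 125, 132 and 146 CPM and at 121, 115 and 133 CPM, a log2 fold change of −0.12 ± 0.08 (adjusted p = 0.690, edgeR). *SETD1A* and *SETD1B* had −0.04 and 0.12. *SETD7*, a monomethyltransferase of histones and of many other proteins, lay at 142, 131 and 147 CPM and at 159, 162 and 146 CPM, with overlap in replicate 3, a log2 fold change of 0.15 ± 0.08 (adjusted p = 0.555, edgeR) and 0.23 within replicates 1 and 2 (adjusted p = 0.00412, edgeR).

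*SETD2*, the enzyme that trimethylates H3K36, lay at 40.6, 39.7 and 60.9 CPM in control cells and at 47.8, 41.8 and 58.4 CPM after ABS. Replicate 3 is high in both groups, and the log2 fold change was 0.07 ± 0.16 (adjusted p = 0.945, edgeR). The H4K20 enzymes are *KMT5A*, which adds the first methyl group, and *KMT5B* and *KMT5C*, which add more. *KMT5B* (ENSG00000110066, chr11:68154863-68213828) lay at 46.6, 47.5 and 49.9 CPM and at 60.4, 57.9 and 54.5 CPM, without overlap, a log2 fold change of 0.26 ± 0.08 (95% interval 0.09 to 0.44, adjusted p = 0.223, edgeR) and 0.33 within replicates 1 and 2 (adjusted p = 0.00639, edgeR). *KMT5A* lay at 51.2, 51.1 and 60.1 CPM and at 50.99, 51.1 and 55.9 CPM, a log2 fold change of −0.04 ± 0.09 (adjusted p = 0.940, edgeR), and *KMT5C* had −0.20.

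Of the other SET domain genes, *SETD3* lay at 93.8, 84.1 and 85.9 CPM in control cells and at 81.7, 82.8 and 80.1 CPM after ABS. The groups do not overlap, by a margin smaller than the spread among the controls, and the log2 fold change was −0.11 ± 0.07 (adjusted p = 0.695, edgeR). *SETD6*, which methylates the NF-kB subunit RelA, had −0.16, and *SETD4*, *SETD5* and *SETD9* had 0.01, −0.05 and 0.03. For *SETD6*, 21.4% of the exon bases are shared with *CNOT1* on the opposite strand, which had a median of 10550.5 counts against 694. The strand setting of the counting was not given in the sources used here, so reads of such pairs cannot be assigned with certainty.

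**Figure D4:**
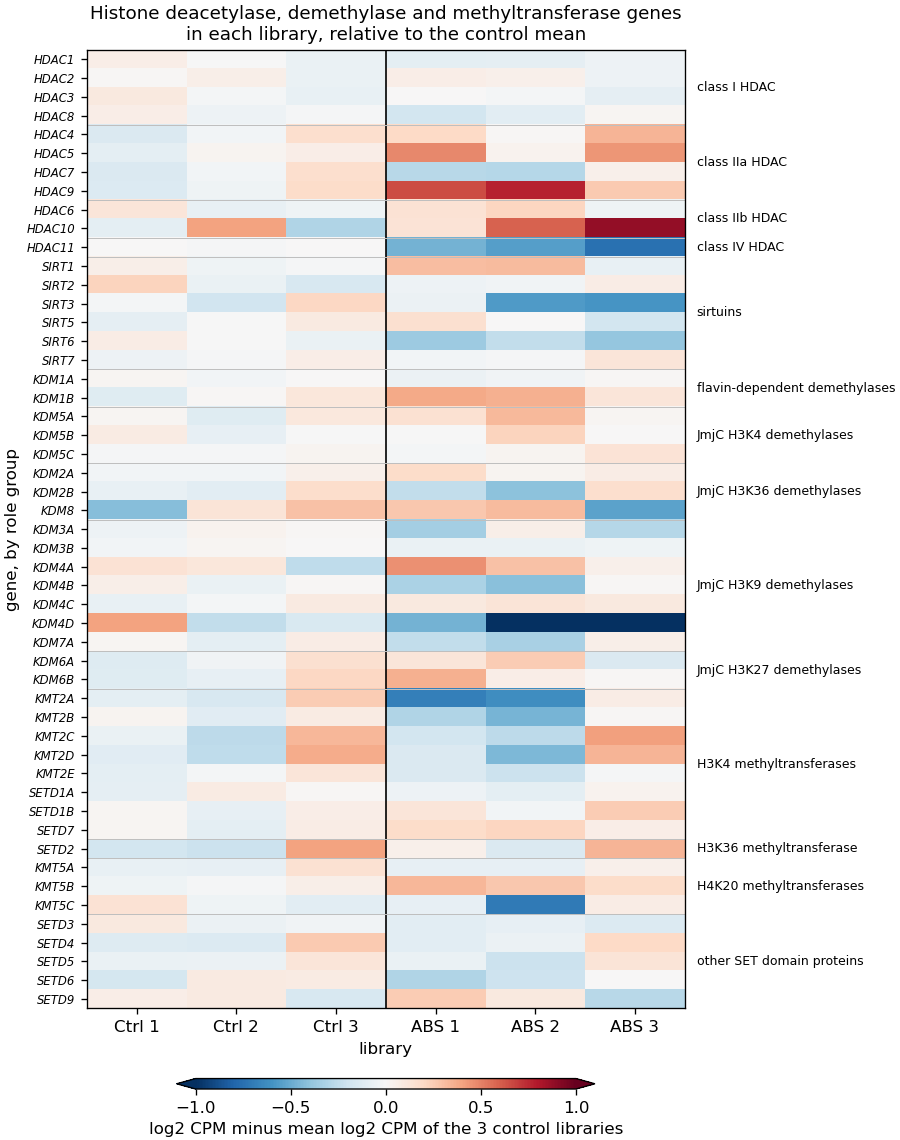
Log2 CPM of the 51 tested genes in each library minus the mean of the 3 control libraries, on a colour scale cut at −1 and 1 (KDM4D goes beyond it), grouped by role. Colours within most rows are pale, HDAC11 is blue in all 3 ABS libraries, HDAC9 is darkest in ABS libraries 1 and 2, and KMT2C, KMT2D and SETD2 are red in replicate 3 of both groups.

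The replicate 3 libraries set much of the spread. In log2 CPM, control replicate 3 exceeded the mean of control replicates 1 and 2 by 0.60 for *SETD2*, 0.56 for *KMT2D*, 0.49 for *KMT2C* and 0.38 for *KMT2A*, and ABS replicate 3 exceeded ABS replicates 1 and 2 by 0.38, 0.64, 0.63 and 0.72. *KMT2D*, for example, lay at 94.9, 85.8 and 133 CPM in control libraries and at 93.1, 75.2 and 130.0 CPM after ABS. Not all genes rose in replicate 3. The same difference was −0.38 in control cells and −0.33 after ABS for *KDM4A*, and 0.42 and −0.81 for *KDM8*. Over the 51 genes the median of this difference was 0.10 in control cells and 0.04 after ABS, beside 0.0062 and 0.0091 over all tested genes. Of the 51 genes, 29 (56.9%) were in the longest quartile of tested genes by deposited length, whose median difference over all its genes was 0.08 in control cells and 0.02 after ABS. Whether length or another property of these libraries bears on these values was not tested.

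In the fit with an extra term for replicate 3, 3 of 51 genes (5.88%) passed, against 3.38% of all tested genes: *HDAC9* higher (adjusted p = 0.0115, edgeR), and *HDAC11* (0.0347) and *KMT2A* (−0.41, adjusted p = 0.0210) lower. With replicates 1 and 2 only, 10 of 51 (19.6%) passed, against 13.2% of all tested genes. *HDAC9*, *KDM1B*, *KDM5A*, *KDM6B*, *KMT5B*, *SETD7* and *SIRT1* were higher in that fit, and *KDM4B*, *KMT2A* and *KMT2B* lower. Dropping libraries for standing apart narrows the spread by itself, and in the replicate 3 pair *KDM5A*, *KDM6B*, *SETD7* and *SIRT1* had the opposite sign. *HDAC9* also passed without control replicate 3 (0.67, adjusted p = 0.0131, edgeR, where 3.10% of all genes passed) and without ABS replicate 3 (0.71, adjusted p = 0.00607, edgeR, 1.94% of all genes), and did not pass without any of the other 4. *KMT2A* passed without ABS replicate 3 (−0.66, adjusted p = 0.0248, edgeR) and did not pass without any of the other 5. Its value was −0.24 without control replicate 3 (adjusted p = 0.595, edgeR) and −0.24 without ABS replicate 1 (adjusted p = 0.921, edgeR). *HDAC9* and *KMT2A* were the genes that passed with no filter on low counts, where 1.64% of all genes did, and with the replicate number as a block, where 2.54% did.

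**Figure D5:**
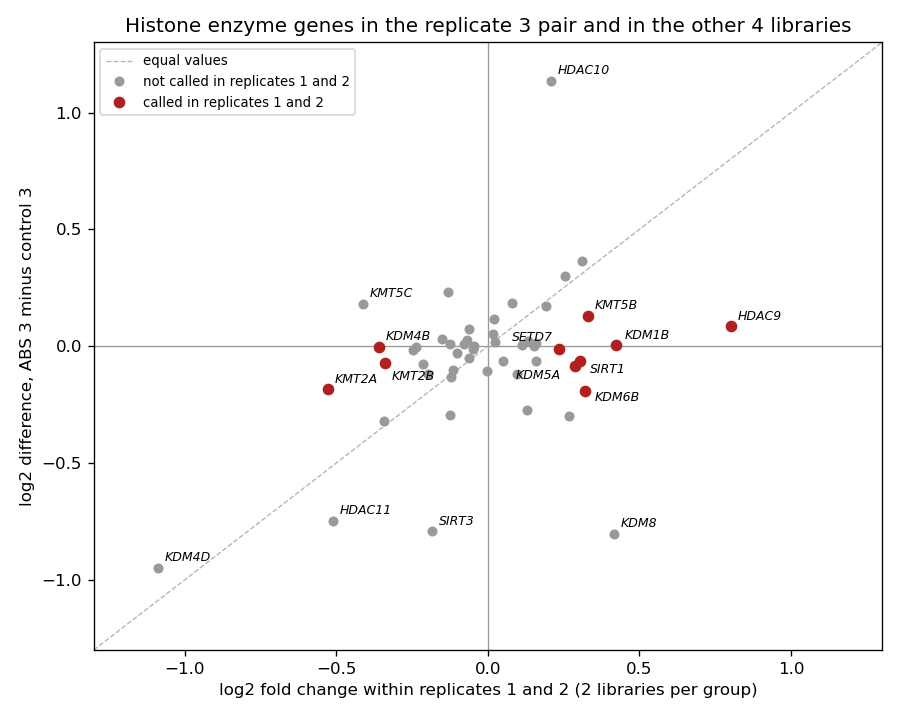
Log2 fold change within replicates 1 and 2 (x axis) against the log2 difference between ABS and control replicate 3 (y axis) for the 51 tested genes; red marks an adjusted p under 0.05 within replicates 1 and 2, and the dashed line marks equal values. The red genes lie nearer to 0 on the y axis than on the x axis (HDAC9 0.80 and 0.09), while HDAC11 (−0.51 and −0.75) and KDM4D lie near the line. Red genes were picked by their test on the x axis values, which by itself favours larger values there, so no conclusion is drawn from this difference.

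Genes that work with these enzymes, or do the same chemistry, were read from the same fit: 74 of 77 were tested, and 1 passed, against 0.436% of all tested genes. The lists were chosen with earlier results of these data known, so this count is no independent result. The passing gene was *JARID2*, a JmjC protein without demethylase activity that acts with the PRC2 complex. It lay at 41.9, 43.2 and 51.7 CPM in control libraries and at 69.8, 71.8 and 77.4 CPM after ABS, so every ABS value is well above every control value. Its log2 fold change was 0.68 ± 0.09 (adjusted p = 0.00801, edgeR), with 0.74 within replicates 1 and 2 and 0.58 for replicate 3. It was lost without control replicate 1 (adjusted p = 0.0713), control replicate 2 (0.0989) or ABS replicate 1 (0.0544). *JARID2* was 1 of the 10 tested genes among other JmjC proteins. None of the 12 COMPASS subunits, 23 HDAC corepressor subunits, 19 other lysine methyltransferases or 10 lysine acetyltransferases passed (edgeR). At an unadjusted p under 0.05 there were 1, 1, 0 and 0, where 9.75% of all tested genes were under that limit. The smallest p in each of these lists belonged to *HCFC1* (0.25, adjusted p = 0.311, edgeR), *RCOR1* (0.20, 0.453), *SETDB1* (0.21, 0.516) and *CREBBP* (0.16, 0.681).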

How the data were processed

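PolyA RNA was sequenced from 3 control and 3 ABS libraries of OE33 cells. The deposited values are raw counts for each gene, and the authors deposited a gene length in bases beside them. The submitters' processing notes name HISAT2 2.0.5, featureCounts 1.5.0-p3 and GRCh38, while the annotation release and strand setting are not given in the sources used here. All 54 genes had the coordinates of GENCODE release 29.

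Counts were tested with edgeR 4.0.16 (R 4.3.3) over the whole table: filterByExpr (minimum count 10, total 15), TMM scaling, quasi-likelihood F-test with group as the only term, Benjamini-Hochberg adjustment over 13768 genes, threshold 0.05. CPM are TMM-scaled. Alternatives used DESeq2 1.42.0, limma 3.58.1, other scalings, no filter, a replicate block, a replicate 3 term and left-out libraries. The procedure was tested on simulated counts of independent libraries with a single dispersion. That simulation held no replicate 3 difference, so it says nothing of how that difference bears on the calls. Reads carry no molecular identifiers, so limits cover counting error only.

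The genes, role groups and partner lists were chosen with earlier results of these data known, and so were the replicate 3 alternatives. Values in every library are given for genes called in the replicate 3 alternatives and, in each role group, for the gene with the highest level and the one with the smallest p. *SIRT3*, *KMT2D* and *KDM8* were added after their values were seen.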

Additional observations from a re-analysis of the deposited data

How the results depend on the processing

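All 51 genes stayed without a call under DESeq2 size factors, library size alone, limma-voom, a robust fit and a test against a 1.2-fold change. The count called higher was 1 with no filter, with DESeq2, with the replicate block and with the replicate 3 term, and 7 with replicates 1 and 2 only. Leaving out 1 library gave 0 to 1. The count called lower was 1 with no filter and with the replicate block, 2 with the replicate 3 term and 3 with replicates 1 and 2 only, and 0 to 1 with a library left out. Genes wholly above control numbered 19 with replicates 1 and 2 only and 5 to 11 with a library left out, and genes wholly below 18 and 6 to 16. Fewer libraries overlap less by themselves. The share over all tested genes was not computed for these fits, so these counts are no result about the group. The median log2 fold change of tested members was −0.0495 to 0.0399 with a library left out. Of the partner genes, 0 passed the test against a 1.2-fold change, and 0 to 2 passed with a library left out. With replicates 1 and 2 only 11 passed, in a fit where 1813 of 13773 genes, or 13.2%, did. For the other moved values the cause was not tested.

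The labels do not say whether equal replicate numbers mark a shared batch, so the replicate block was used only as an alternative. In log2 CPM relative to the group mean, libraries of equal number correlated at 0.04, 0.03 and 0.17 across groups. Those of unequal number correlated at −0.125 to 0.0934. Signs changed in 16 genes, all within 0.08 of 0 in the fit over all libraries: *KMT2C* was 0.0023 and *SIRT5* 0.0024 with no filter, *SETD4* was −0.0041 with library size alone, and *SIRT5* was 0.13 with replicates 1 and 2 only. With a library left out, the ranges were −0.0144 to 0.0592 for *HDAC2*, −0.0747 to 0.0139 for *HDAC3*, −0.0010 to 0.12 for *KDM5B*, −0.0110 to 0.18 for *KDM6A*, −0.15 to 0.27 for *KDM8*, −0.24 to 0.18 for *KMT2C*, −0.31 to 0.14 for *KMT2D*, −0.0827 to 0.0399 for *KMT5A*, −0.0790 to 0.0058 for *SETD1A*, −0.0683 to 0.30 for *SETD2*, −0.0908 to 0.15 for *SETD4*, −0.14 to 0.0330 for *SETD5*, −0.0837 to 0.17 for *SETD9*, −0.0921 to 0.11 for *SIRT2*, −0.0888 to 0.0833 for *SIRT5* and −0.0154 to 0.0634 for *SIRT7*. At 3 libraries per group the 95% intervals had a median half-width of 0.25, which limits what can be called.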
